A study of Mus musculus with 12 samples.

Results

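Listed peaks of the histone marks H3K4me1, H3K4me2 and H3K4me3 (methyl groups added to lysine 4 of histone H3) were examined at the loci of 4 mouse genes of oxidative metabolism and the slow muscle fibre, Ppargc1a, Pdk4, Myh6 and Myh7. The members were all peaks that overlap 3 fixed windows of the mm9 genome, on chromosome 5 (51830000 to 51965000, Ppargc1a), chromosome 6 (5415000 to 5465000, Pdk4) and chromosome 14 (55550000 to 55630000, Myh6 and Myh7), and they numbered 15 of the 134900 peaks in the series. The windows were set by position and not by any measured value. Members and lists were nevertheless chosen with earlier results of these data known. The cells were C2C12, a mouse myoblast line, put into differentiation medium with horse serum for 48 h, so that they were studied on day 2. The treated cells received the LSD1 inhibitor S2101 at 10 µM and the others the vehicle, and nothing else in the labels separates them. Chromatin was immunoprecipitated and sequenced, with 1 library and 1 peak list per mark and treatment, H3K4me1 and H3K4me2 in experiment 1 and H3K4me3 in experiment 2. The mark and the experiment therefore cannot be told apart wherever H3K4me3 is set beside the other marks, and no difference between S2101 and vehicle has a replicate check or a p-value.

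LSD1 (Kdm1a) is a demethylase that acts on mono- and dimethylated H3K4 but not on the trimethylated form, and the study compared how H3K4 methylation is distributed when the enzyme is inhibited. H3K4me3 marks active or poised promoters, H3K4me2 promoters and enhancers, and H3K4me1 enhancers and the outer flanks of promoters. Ppargc1a encodes PGC-1alpha, a transcriptional coactivator that drives mitochondrial biogenesis and the oxidative fibre programme. Pdk4 encodes a mitochondrial kinase that inactivates pyruvate dehydrogenase and so turns muscle from glucose to fatty acids as fuel. Myh7 encodes the slow, or beta-cardiac, myosin heavy chain, which defines slow-twitch fibres, and Myh6 the alpha-cardiac heavy chain, which lies next to it in the genome. In tissue culture C2C12 myotubes are known mainly for embryonic and fast myosins.

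All 4 genes are transcribed from the minus strand in RefSeq, so upstream means towards higher coordinates in what follows. The sequences around their start sites are shown because H3K4me3 is a promoter mark and was listed in the Ppargc1a and Pdk4 windows but not in the Myh6 and Myh7 window. They run from 250 bases before to 50 bases after the start, 5′ to 3′ on the gene's strand, with CpG dinucleotides in capitals, and are credited to RefSeq on GRCm38.p6. That build is not the build of the peaks, whose annotation was not used here, so the starts were not placed among the peaks. The Ppargc1a promoter (GRCm38.p6 chr5:51567676-51567975, minus strand), the Pdk4 promoter (chr6:5496229-5496528, minus strand), the Myh6 promoter (chr14:54966558-54966857, minus strand) and the first listed Myh7 promoter (chr14:54994577-54994876, minus strand) read as follows.
Ppargc1a: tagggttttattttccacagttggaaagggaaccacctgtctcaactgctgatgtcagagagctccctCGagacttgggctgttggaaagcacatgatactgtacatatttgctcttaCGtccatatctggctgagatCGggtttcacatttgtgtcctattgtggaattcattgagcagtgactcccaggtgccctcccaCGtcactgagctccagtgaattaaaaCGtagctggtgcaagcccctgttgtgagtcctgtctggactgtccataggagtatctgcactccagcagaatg
Pdk4: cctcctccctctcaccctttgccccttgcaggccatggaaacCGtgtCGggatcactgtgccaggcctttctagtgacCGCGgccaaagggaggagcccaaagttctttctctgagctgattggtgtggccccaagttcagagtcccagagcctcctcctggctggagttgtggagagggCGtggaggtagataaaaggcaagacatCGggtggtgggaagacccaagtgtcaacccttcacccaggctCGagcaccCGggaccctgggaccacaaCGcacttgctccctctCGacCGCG
Myh6: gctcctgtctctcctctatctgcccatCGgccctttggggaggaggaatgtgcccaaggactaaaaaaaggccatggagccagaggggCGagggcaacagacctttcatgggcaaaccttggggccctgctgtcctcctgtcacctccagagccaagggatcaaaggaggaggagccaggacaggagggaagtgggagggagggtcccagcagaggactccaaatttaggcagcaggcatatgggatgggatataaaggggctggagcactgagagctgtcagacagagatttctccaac
Myh7: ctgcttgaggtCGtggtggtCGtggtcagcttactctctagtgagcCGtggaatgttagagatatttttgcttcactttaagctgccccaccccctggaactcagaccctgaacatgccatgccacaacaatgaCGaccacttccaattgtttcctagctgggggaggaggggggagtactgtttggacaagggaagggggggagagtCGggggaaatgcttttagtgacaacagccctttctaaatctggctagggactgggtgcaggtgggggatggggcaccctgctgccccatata

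The Pdk4 promoter held 12 CpG dinucleotides and 60.7% G and C bases, the Ppargc1a and Myh7 promoters 5 each (48.7% and 54.3%), and the Myh6 promoter 2 (57.3%). The median over the 32851 RefSeq promoters of this length was 7 CpG dinucleotides and 52.7% G and C. Fewer CpG dinucleotides than in Pdk4 were found in 60.4% of promoters, and fewer than in Ppargc1a and Myh7 in 38.0%. These counts, and the motif matches that follow, describe the printed sequences, which need not lie under the peaks. For Ppargc1a only 1 start was listed, and whether it is the start at the H3K4me3 element was not established. For Myh7 2 starts were listed, and only the sequence at the first was counted and searched. On both strands, the E-box letters CANNTG, of the type that MyoD-family factors bind, occurred 6 times in the Ppargc1a promoter, 2 times in Pdk4, 1 time in Myh6 and 2 times in Myh7, and 72.3% of all promoters held them. TGACGT, the core of the cAMP response element, occurred in the Ppargc1a promoter alone of the 4, on the opposite strand starting 50 bases before the start, and in 7.51% of all promoters. TATAAA was in the Myh6 promoter alone of the 4 and in 13.6% of all promoters. In Myh6 it began at position 2 from the listed start, so after that listed start and not before it. Whether transcription of Myh6 begins at the listed start was not established. The nuclear receptor half-site AGGTCA (16.3% of all promoters) and the MEF2 motif (3.19%) matched in none of the 4 promoters. No matches overlapped each other, and a match or its absence describes these letters only.

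The windows of Ppargc1a and Pdk4 each held a single H3K4me3 element, overlapped by H3K4me2, in S2101 and in vehicle cells, whereas the Myh6 and Myh7 window held no H3K4me3 peak in either. With S2101 the H3K4me2 peaks at both elements were shorter and broken in 2, and the H3K4me3 peak was wider, by 742 bp at Pdk4 and by 70 bp at Ppargc1a. H3K4me1 was nearly absent, with 2 peaks in the S2101 list and 2 in the vehicle list over all windows together. Over the 3 windows together H3K4me2 covered 2669 bp with S2101 and 5294 bp with vehicle, a ratio of 0.504, H3K4me3 covered 4020 bp and 3208 bp, a ratio of 1.25, and H3K4me1 covered 677 bp and 638 bp, a ratio of 1.06. The whole lists gave 15.9 Mb with S2101 and 34.1 Mb with vehicle for H3K4me2 (ratio 0.467), 26.8 Mb and 24.4 Mb for H3K4me3 (1.10), and 9.34 Mb and 26.9 Mb for H3K4me1 (0.347). The direction at these loci was thus that of the whole list for H3K4me2 and H3K4me3. For H3K4me1 the few short peaks did not show the drop of the whole list, and their number is too small to read a difference from. Fewer cells with a mark and less of the mark per cell cannot be told apart in such lists.

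**Figure D1:**
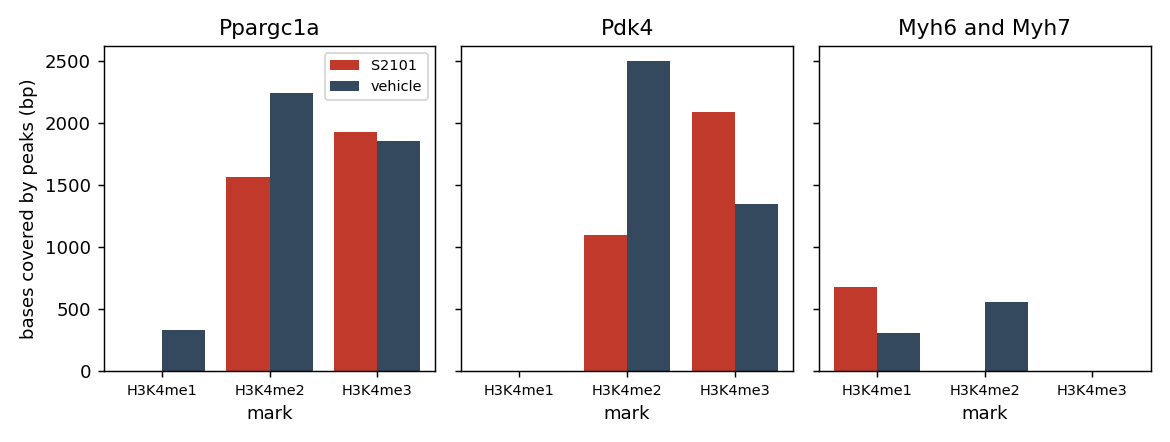
Bases covered by peaks (vertical axis, bp) of each mark (horizontal axis) in the 3 windows, with S2101 (red, left) and vehicle (dark, right), 1 library each. H3K4me2 is lower with S2101 in every window, and H3K4me3 stands higher with S2101 at Pdk4 (2090 against 1348 bp). At Myh6 and Myh7 the H3K4me2 values, 0 against 556 bp, rest on 1 vehicle peak near the lowest score (103.18).

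At Ppargc1a, the coactivator gene, the H3K4me3 element was nearly the same in both treatments. Its peak spanned 51942935 to 51944864 on chromosome 5 with S2101 (1930 bp, authors' score 3100) and 51943035 to 51944894 with vehicle (1860 bp, score 3004.2). Scores rank peaks within their own list only, and 59.8% of S2101 and 56.5% of vehicle H3K4me3 peaks stand at 3100 or more. The S2101 peak reached 100 bp further downstream and ended 30 bp short of the vehicle peak upstream. It was 1.04 times as wide as its vehicle counterpart, a ratio that 58.8% of the 12212 such pairs in the lists equalled or passed, and the median ratio was 1.06. In 74.7% of all pairs the S2101 peak was the wider. Pairs were peaks with exactly 1 counterpart in each direction, overlapping by at least 1 bp.

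The Ppargc1a element stood alone. The nearest other H3K4me3 peaks were 1490 kb below and 560 kb above it in the S2101 list, and the same rounded distances held in the vehicle list. A nearer neighbour was found for 98.5% of S2101 and 98.3% of vehicle H3K4me3 peaks, whose median distance to the nearest peak was 24.0 kb and 24.7 kb. RefSeq gives the gene a length of 661605 bp on GRCm38, more than the 135 kb window, so alternative starts of the gene can lie outside it. In the list of H3K4me1 with S2101, a peak of 294 bp (score 113.83) lay 397 kb below the window and 1 of 216 bp (score 110.02) 184 kb above it. The vehicle H3K4me1 list had its nearest peaks 1390 kb below and 540 kb above.

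H3K4me2 at Ppargc1a was listed as 2 peaks with S2101 and 1 with vehicle. The S2101 peaks ran from 51943232 to 51944341 (1110 bp, score 787.43) and from 51944367 to 51944823 (457 bp, score 225.35), with 25 bp between them. The vehicle peak ran from 51942897 to 51945136 (2240 bp, score 1325.15). Both S2101 peaks lay wholly inside it and covered 70.0% of its length, leaving 335 bp uncovered at the downstream end and 313 bp at the upstream end. Among the 14508 vehicle H3K4me2 peaks over H3K4me3 that had a counterpart, the median share covered was 54.8% (quartiles 42.5 and 66.1%), and 81.9% of them were covered less than this one. The Ppargc1a peak thus kept more of its listed length than most. The larger S2101 fragment ranked high in its list, where 92.4% of peaks scored lower, and the vehicle peak scored above 88.5% of its own.

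A short vehicle H3K4me1 peak lay at the upstream end of this element and had no S2101 counterpart. It spanned 51944498 to 51944827 (330 bp, score 119.52), inside vehicle H3K4me2 and H3K4me3 over its full length, and ended 67 bp before the upstream edge of H3K4me3. Its score was low, and 81.6% of the vehicle H3K4me1 list scored higher. Vehicle H3K4me1 peaks that overlapped H3K4me3 of either treatment made up 16.2% of their list, and 77.1% of these had no S2101 counterpart. Among vehicle H3K4me1 peaks that scored under 200 the share without a counterpart was 82.6%. The missing peak at Ppargc1a is therefore the common case for peaks of its kind.

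**Figure D2:**
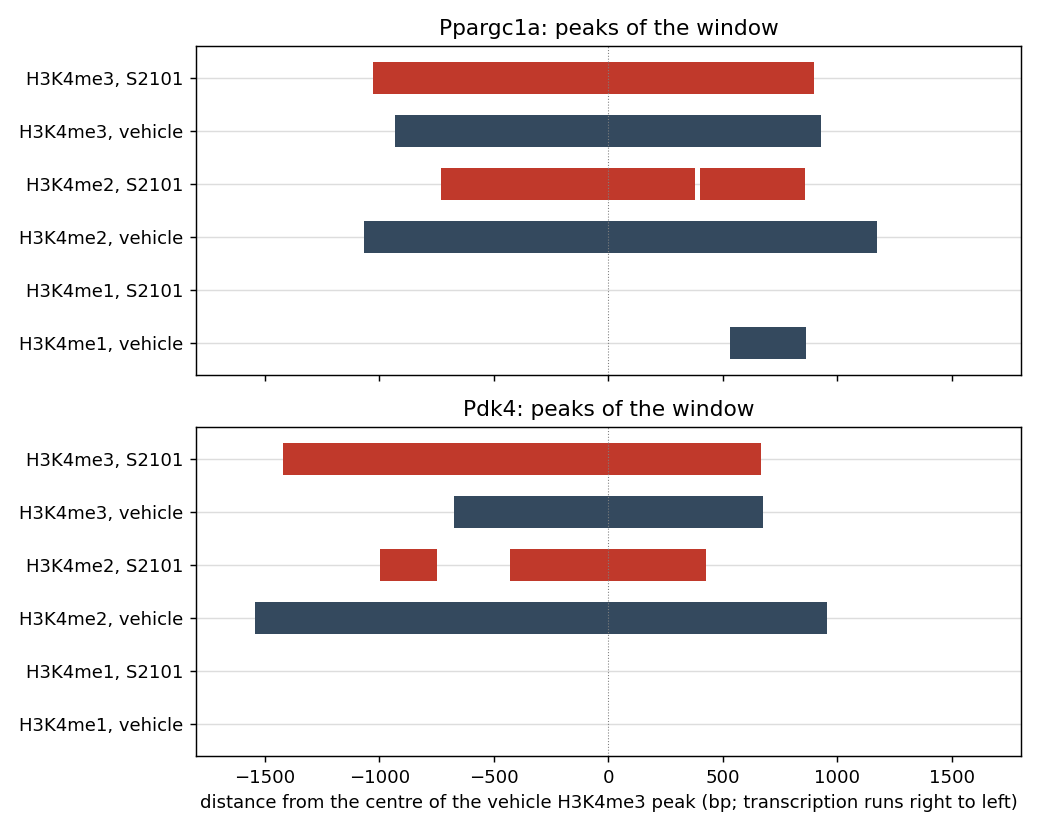
Peaks at Ppargc1a (top) and Pdk4 (bottom) by mark and treatment, drawn to scale as bars against the distance in bp from the centre of the vehicle H3K4me3 peak, with S2101 in red above vehicle in dark and with the genes read from right to left. The S2101 H3K4me3 peak at Pdk4 reaches 748 bp further to the left, and the S2101 H3K4me2 peaks stay inside H3K4me3 at both genes.

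At Pdk4, the kinase gene, the H3K4me3 peak was wider with S2101. It spanned 5444837 to 5446926 on chromosome 6 with S2101 (2090 bp, score 3100) and 5445585 to 5446932 with vehicle (1348 bp, score 2280.57). All of the added length was at the downstream edge, in the direction of transcription, where the S2101 peak began 748 bp before the vehicle peak. At the upstream edge the S2101 peak ended 6 bp short of the vehicle peak. The S2101 peak was 1.55 times as wide as its counterpart, and 2.4% of the 12212 pairs (293) had a ratio as high or higher. In 0.843% of pairs (103) an edge of the S2101 peak lay as far or further outside the vehicle peak, and the median of the larger edge shift was 103 bp (quartiles 42 and 184 bp). The wider peak at Pdk4 was therefore well inside the upper tail of the lists, while that at Ppargc1a was near their middle.

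**Figure D3:**
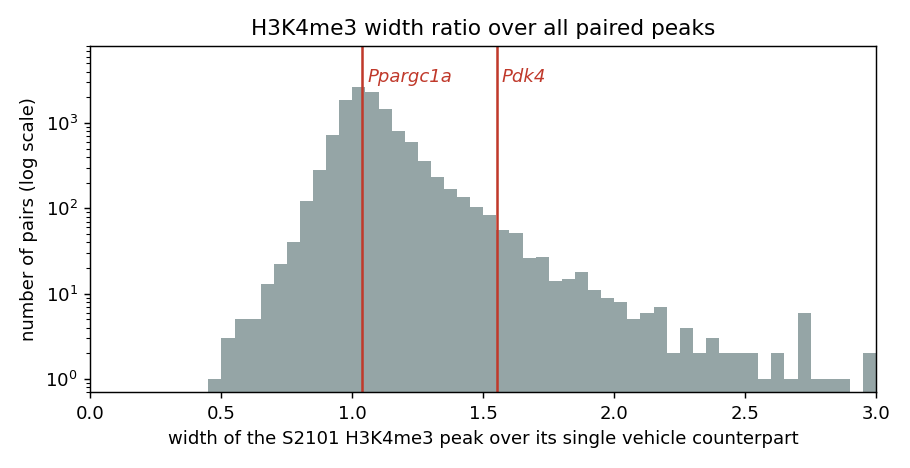
Number of H3K4me3 pairs (vertical log axis) by the width of the S2101 peak over that of its single vehicle counterpart (horizontal axis), with red lines at Ppargc1a and Pdk4; 8 pairs with a ratio above 3 are not drawn. Ppargc1a, at 1.04, lies near the median of 1.06, and Pdk4, at 1.55, lies in the upper tail.

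H3K4me2 at Pdk4 was again listed as 2 peaks with S2101 and 1 with vehicle. The S2101 peaks ran from 5445261 to 5445508 (248 bp, score 107.29) and from 5445831 to 5446684 (854 bp, score 558.11), with 322 bp between them. The vehicle peak ran from 5444714 to 5447211 (2498 bp, score 1010.15). The S2101 peaks covered 44.1% of it, and the uncovered ends measured 547 bp downstream and 527 bp upstream. Of the vehicle peaks over H3K4me3 with a counterpart, 27.7% were covered less, so Pdk4 lay in the lower part of the range and Ppargc1a in the upper part. Vehicle H3K4me2 peaks of this class were split over 2 or more S2101 peaks in 38.3% of cases, and the split at both genes is a common outcome in these lists. The shorter S2101 fragment at Pdk4 was among the weakest of its list, in which 4.07% of peaks scored lower.

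No H3K4me1 peak lay in the Pdk4 window. The nearest were in the S2101 list 20.3 kb below (321 bp, score 143.99) and 38.3 kb above the window (264 bp, score 137.85), and in the vehicle list 8.75 kb below (308 bp, score 102.06) and 196 kb above (414 bp, score 138.86). The Pdk4 H3K4me3 element was also set apart from others, with its nearest neighbour at 196 kb with S2101 and 197 kb with vehicle, further than for 93.8% and 93.4% of the peaks in these lists. The neighbouring protein-coding genes in RefSeq are Asb4 below and Dync1i1 above.

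The order of H3K4me2 and H3K4me3 edges was opposite in the treatments at both genes. With S2101, H3K4me2 ended inside H3K4me3 on both sides, 41 bp short of the upstream and 297 bp short of the downstream edge at Ppargc1a, and 242 bp and 424 bp short at Pdk4. With vehicle, H3K4me2 reached beyond H3K4me3 on both sides, by 242 bp upstream and 138 bp downstream at Ppargc1a, and by 279 bp and 871 bp at Pdk4. This pattern was the usual one in the lists. H3K4me2 ended inside both edges of 77.9% of the S2101 H3K4me3 peaks that had any and of 3.17% of such vehicle peaks, and it reached beyond both edges of 2.05% of S2101 and 69.5% of vehicle peaks. H3K4me2 covered 81.2% of the H3K4me3 peak at Ppargc1a with S2101 and 100% with vehicle. At Pdk4 it covered 52.7% with S2101 and 100% with vehicle. The median over all H3K4me3 peaks was 56.9% with S2101 and 100% with vehicle, and 86.7% of S2101 peaks had a lower share than Ppargc1a and 43.1% a lower share than Pdk4.

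The bases that were listed with H3K4me3 only under S2101 were all listed with H3K4me2 in vehicle cells at both genes. At Pdk4 all 748 added bases lay in the vehicle H3K4me2 peak, and 248 of them (33.2%) lay in an S2101 H3K4me2 peak. At Ppargc1a all 100 added bases lay in vehicle H3K4me2 and none in S2101 H3K4me2. Over all pairs, 77.1% of the added bases lay in vehicle H3K4me2 and 19.9% in S2101 H3K4me2. These are shares of pooled bases, to which long additions contribute most. The share of pairs with all added bases in vehicle H3K4me2 was not counted, so full inclusion at both genes has no rank. Read from the vehicle side, H3K4me2 formed a shoulder of 871 bp beyond the downstream edge of H3K4me3 at Pdk4, longer than 97.4% of the shoulders at 6226 simple elements, those with 1 H3K4me3 peak inside 1 H3K4me2 peak. S2101 H3K4me3 covered 85.9% of this shoulder. In 0.369% of all shoulders S2101 H3K4me3 covered at least as many bases, and over all shoulder bases together the share was 32.0%. Of the downstream shoulder at Ppargc1a, 138 bp long, it covered 72.5%, and of the upstream shoulders, 242 bp at Ppargc1a and 279 bp at Pdk4, it covered 0 bp. At each gene the S2101 H3K4me3 peak reached beyond the vehicle peak at 1 edge only, as in 42.4% of the 12212 pairs, and an edge shift of 100 bp or more, as at Ppargc1a, was found in 51.6%. A shoulder shorter than 748 bp cannot hold 748 covered bases, so the rank of Pdk4 by covered bases depends in part on shoulder length. The size of that part was not tested.

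At the Myh6 and Myh7 window, which holds the genes of the alpha- and beta-cardiac heavy chains, there were 4 short and low-scoring peaks, none of them of H3K4me3. S2101 H3K4me1 was listed at 55564931 to 55565349 on chromosome 14 (419 bp, score 157.47) and at 55617344 to 55617601 (258 bp, score 103.63). Vehicle H3K4me1 was listed at 55622879 to 55623186 (308 bp, score 111.56), and vehicle H3K4me2 at 55615764 to 55616319 (556 bp, score 103.18). None of the 4 overlapped a peak of the other treatment or of another mark. The highest-ranking of them was the first S2101 H3K4me1 peak, with a score above 58.6% of its list. The other S2101 peak scored above 9.54% of its list, the vehicle H3K4me1 peak above 12.1% and the vehicle H3K4me2 peak above 1.12%, so these 3 were close to the lowest score that the caller wrote, 100.

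All of these but the first S2101 peak, 3 in number, lay within 7423 bp near the upper end of the window. The S2101 H3K4me1 peak there was 1024 bp from the vehicle H3K4me2 peak below it and 5277 bp from the vehicle H3K4me1 peak above it. In the lists as a whole, 67.0% of vehicle and 27.5% of S2101 H3K4me1 peaks had no counterpart, and among those that scored under 200 it was 34.1% of the S2101 peaks. For H3K4me2 it was 25.8% of vehicle peaks, 74.4% of vehicle peaks that scored under 200, and 3.94% of S2101 peaks. Over the 3 windows, 2 of 2 S2101 and 2 of 2 vehicle H3K4me1 peaks had no counterpart, and 0 of 4 S2101 and 1 of 3 vehicle H3K4me2 peaks. Both H3K4me3 peaks of each list had a counterpart, which 8.43% of S2101 and 1.3% of vehicle H3K4me3 peaks lack.

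**Figure D4:**
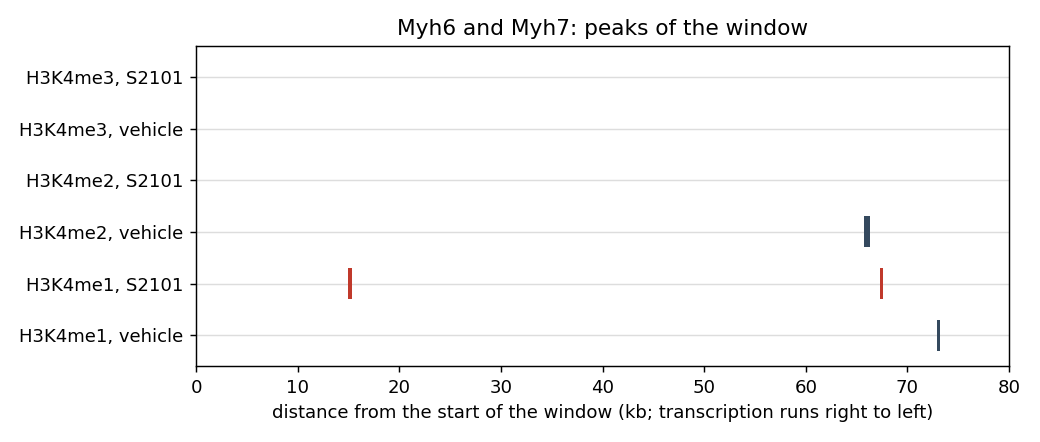
Peaks in the Myh6 and Myh7 window by mark and treatment, drawn to scale against the distance in kb from the start of the window, with S2101 in red above vehicle in dark and with the genes read from right to left. No H3K4me3 peak was listed, and the 4 peaks of the other marks do not overlap each other.

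H3K4me3 and H3K4me2 peaks stood just outside the Myh6 and Myh7 window. Above it, S2101 H3K4me3 began 3.07 kb beyond the window (55633072 to 55635413, 2342 bp, score 3100) and vehicle H3K4me3 3.21 kb beyond it, as 2 peaks (55633211 to 55634100, 890 bp, score 821.95, and 55634250 to 55635350, 1101 bp, score 3077.79). They covered 2342 bp with S2101 and 1991 bp with vehicle. In RefSeq the protein-coding gene above Myh7 is Ngdn, and these peaks were not assigned to a gene here. Below the window, H3K4me3 was 17.8 kb away in both lists (1086 bp with S2101 and 978 bp with vehicle), and the gene next to Myh6 on that side is Cmtm5. The interval without a listed H3K4me3 peak, which holds the whole window, was 101 kb long with S2101 and 101 kb with vehicle.

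Tiles of 100 kb along the genome show how common such values are, where a tile counts as called when the covered bases differ at least 2-fold between treatments. H3K4me3 was listed in neither treatment in 69.5% of the 26357 tiles, H3K4me1 in neither in 66.6% and H3K4me2 in neither in 65.1%, so the lack of H3K4me3 at Myh6 and Myh7 and of H3K4me1 at Pdk4 is the state of most tiles. Of the 9195 tiles that held H3K4me2 in either treatment, 57.8% were at least 2-fold lower with S2101 and 1.48% at least 2-fold higher. The Pdk4 window, at a ratio of 0.441, and the Myh6 and Myh7 window, with 0 bp against 556 bp, were past that fold, and Ppargc1a, at 0.70, was not. Of the 8047 tiles that held H3K4me3 in either treatment, 5.43% were at least 2-fold higher with S2101 and 0.795% lower, and neither Ppargc1a (1.04) nor Pdk4 (1.55) was past that fold. Of the 8806 tiles that held H3K4me1, 4.42% were at least 2-fold higher with S2101 and 78.9% lower. The Myh6 and Myh7 window was among the higher, with 677 bp with S2101 and 308 bp with vehicle, a ratio of 2.20 that rests on 3 peaks. The windows were placed on genes and differ in length from the tiles, which run along the genome with or without genes. These shares are therefore a guide to scale only and not a background of gene loci.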

How the data were processed

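The ChIP-seq peak lists of 6 samples were used, and the input and H3 samples were not used here. Per the file headers, the authors called peaks with MACS in Galaxy, library by library. The deposited score of each peak is the authors' own and ranks peaks within a list only. The submitters' processing notes name Bowtie2, deepTools and mm9. Depth is unknown, because read counts and settings were not given in the sources used here, and nothing was scaled for it. Fewer reads or weaker enrichment in a library can shorten, split or remove listed peaks.

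Whole peaks that overlap a window were kept, positions are 1-based, and a counterpart overlaps by at least 1 bp. Every peak in the windows is named, as no list held more than 6 in a window. Other genes of the programme were not counted, for want of an mm9 annotation. Members and lists were chosen with earlier results of these data known. With 1 library per group no test was run. Tiles end at the last peak of each chromosome and leave out unplaced sequence. Interval counts matched bedtools 2.31.1 on simulated lists (Python 3.11.15 with pandas 2.3.3, numpy 2.4.6, matplotlib 3.10.9 and scipy 1.17.1). Alternatives were a score of at least 200, lists of equal length, windows widened by 20 kb, peaks trimmed to the window, peaks at most 500 bp apart joined, a reciprocal overlap of at least 50% and a distance within 1 kb. Shares carry 95% Wilson intervals for counting error only.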

Additional observations from a re-analysis of the deposited data

How the results depend on the processing

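No paired analysis was possible because each mark and treatment has 1 library. Of 58 recomputed values, 43 stayed as reported or within their Wilson interval, 15 moved, and 0 changed sign. Shares, and differences that were 0 at the outset, could not change sign. Trimming could move nothing, because no peak crossed a window edge. The Wilson intervals of the reported shares rest on 2 to 4 peaks and are wide, so this tally says little about robustness. The H3K4me3 differences, 742 bp at Pdk4 and 70 bp at Ppargc1a, were the same under all 5 alternatives. That outcome was fixed in advance and is no check on these differences. The peaks scored 2280.57 or more, far above those that a cut by score or list length removes. Their nearest H3K4me3 neighbours were 196 kb or further away, so widening by 20 kb and joining over 500 bp could not act. With a score of at least 200, every H3K4me1 peak of the windows and the vehicle H3K4me2 peak at Myh6 and Myh7 dropped out, so the differences in covered bases (S2101 minus vehicle) for H3K4me1 at Ppargc1a and at Myh6 and Myh7 and for H3K4me2 at Myh6 and Myh7 became 0, and the Pdk4 H3K4me2 difference became -1644 bp, as the shorter S2101 peak fell away. Vehicle H3K4me2 peaks with a counterpart then made up 100% (2 of 2), against 66.7% (2 of 3). With lists of equal length, the Pdk4 difference was also -1644 bp, the H3K4me1 difference 0 at Ppargc1a and 677 bp at Myh6 and Myh7, since neither vehicle peak remained. With peaks at most 500 bp apart joined, H3K4me2 differed by -648 bp at Ppargc1a and -1074 bp at Pdk4. Windows widened by 20 kb took in neighbouring elements and gave -308 bp for H3K4me1 at Pdk4, and -3762 bp for H3K4me2 and 459 bp for H3K4me3 at Myh6 and Myh7. When 50% reciprocal overlap was asked for, 0 of 4 S2101 and 0 of 3 vehicle H3K4me2 peaks had a counterpart. The Wilson intervals of these shares of 0% reached 49.0% and 56.1%. At Ppargc1a and Pdk4 each S2101 fragment was compared singly with the longer vehicle peak. The larger Ppargc1a fragment, 1110 bp against 2240 bp, fell just short of the limit. The vehicle peak at Myh6 and Myh7 had no overlapping S2101 peak under any rule. The H3K4me1 shares could not be computed with a score of at least 200, nor the vehicle share with lists of equal length. The unknown read depth limits every difference between lists, above all for peaks near the lowest score.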
